A study of Mus musculus with 24 samples.

Results

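The mature miRNAs miR-122-5p (MIMAT0000246), miR-192-5p (MIMAT0000517) and miR-194-5p (MIMAT0000224), best known from liver, intestine and kidney, were measured in mouse subcutaneous fat. They were chosen by miRBase accession, with genomic copies of one mature sequence summed, and are 3 of 1907 mature miRNAs in the count table. The samples were small RNA libraries from female mice fed chow and kept at 22 °C, in 4 groups of 6: sedentary wild type, trained wild type, sedentary kinase dead and trained kinase dead. Trained mice ran on a motorised treadmill at 16 m/min for 1 hour on 5 days of each week over 6.5 weeks, and could also use a running wheel. The sources used here do not name the kinase, the cells in which its dead form is expressed, the age of the mice or the site of the subcutaneous fat. The labels do not state that each library is a separate animal, so p-values measure the spread between libraries, which may be technical.

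An miRNA guides an Argonaute protein to messenger RNAs mainly through its seed, the bases near its 5′ end, and lowers their translation and stability. miR-122 is the dominant miRNA of hepatocytes, where it acts in cholesterol and lipid metabolism, and it also circulates in plasma. miR-192 and miR-194 are transcribed together and are abundant in intestinal epithelium, kidney and liver. miR-215 carries the same seed as miR-192 and is transcribed with the other miR-194 hairpin.

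The sequences below show which of these RNAs could be told apart by their reads. They are RefSeq mature sequences of GRCm38.p6, written 5′ to 3′ with the seed (bases 2 to 8) in capitals.
miR-192-5p: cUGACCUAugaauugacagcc
miR-215-5p: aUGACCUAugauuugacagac
miR-194-5p: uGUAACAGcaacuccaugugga
miR-194-1-3p: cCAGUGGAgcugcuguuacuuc
miR-194-2-3p: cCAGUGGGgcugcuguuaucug
miR-192-5p and miR-215-5p share the seed UGACCUA, and of 1679 mature names in that table miR-215-5p is the 1 other that carries it. They are identical at 18 of 21 bases and differ by C1A, A12U and C20A, counted from 1 at the 5′ end with the base of miR-192-5p first. No other mature name carries the seed of miR-194-5p, GUAACAG. The 3p arms of the 2 miR-194 hairpins differ from each other at 4 of 22 bases.

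miR-194-5p itself is identical in both of its hairpins, shown here with that arm in capitals, so its reads do not name the hairpin they came from.
Mir194-1: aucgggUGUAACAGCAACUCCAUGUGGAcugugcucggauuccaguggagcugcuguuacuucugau
Mir194-2: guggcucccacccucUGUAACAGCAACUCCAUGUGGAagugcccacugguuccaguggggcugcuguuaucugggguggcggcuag
Mir194-1 lies at chr1:185313319-185313385 on the plus strand (GRCm38, mm10), 195 bases before the Mir215 hairpin. GENCODE places both inside the non-coding gene 2010103J01Rik, Mir194-1 outside its exons and Mir215 in an exon, opposite the coding gene Iars2. Mir194-2 lies at chr19:6264643-6264728 on the plus strand, 115 bases before the Mir192 hairpin at chr19:6264844-6264932. GENCODE annotates no other gene over those 2 hairpins on either strand.

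Library totals ran from 1.60 to 23.6 M reads, so that 3 reads stand for 0.127 to 1.87 CPM (reads per 1e6 library reads, scaled by edgeR's TMM factors). Trained libraries were deeper by median, at 10.8 M reads against 3.75 M in sedentary wild type. In kinase dead mice the medians were 9.67 M when trained and 5.997 M when sedentary. A list of adipocyte and stromal miRNAs led by miR-143 had a summed level of 135246 to 264404 CPM, and miR-143-3p alone averaged 135804 CPM. Without another tissue to compare with, this sum does not test the fat label. Of the 24 libraries, 7 were high in lymphocyte miRNAs (miR-150-5p at 3630 CPM or more). They were replicates 5 and 6 of sedentary kinase dead, 3 and 6 of trained kinase dead, 1 of sedentary wild type, and 1 and 2 of trained wild type. Each of the 6 comparisons of the 3 miRNAs was therefore repeated without them. Across the 6 comparisons edgeR and DESeq2 called no feature of the 582 tested at an adjusted p under 0.05.

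miR-192-5p was the most abundant of the 3 and the steadiest. It averaged 616 ± 88.7 CPM (SD, n = 24) and ranked 100th by mean level, and its counts ran from 820 to 13266 reads a library. In sedentary wild type it ran from 481 to 609 CPM with a median of 568, and in trained wild type from 453 to 811 CPM with a median of 717. Of the 6 trained libraries 5 lay above the highest sedentary one, and trained replicate 3 lay below the lowest. In sedentary kinase dead mice it ran from 508 to 653 CPM with a median of 604, and in trained kinase dead from 513 to 692 CPM with a median of 658. Ordered by mean the groups were trained wild type (678 ± 125 CPM), trained kinase dead (639 ± 66.5), sedentary kinase dead (594 ± 53.8) and sedentary wild type (552 ± 49.9). Neighbours in this order differed by less than the SD of either group.

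miR-194-5p averaged 369 ± 75.0 CPM (SD, n = 24), with 392 to 8540 reads a library, and ranked 126th. In sedentary wild type it ran from 230 to 449 CPM with a median of 317, and in trained wild type from 349 to 524 CPM with a median of 398. Each of the 6 trained libraries exceeded the median of the sedentary ones, 2 exceeded their highest, and the groups overlapped. In kinase dead mice it ran from 265 to 421 CPM with a median of 387 when sedentary, and from 310 to 445 CPM with a median of 347 when trained. There 2 of 6 trained libraries exceeded the sedentary median. The order by mean was trained wild type (425 ± 73.7 CPM), sedentary kinase dead (368 ± 56.1), trained kinase dead (360 ± 52.1) and sedentary wild type (322 ± 89.7), and neighbours differed by less than the larger of their SDs.

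miR-122-5p was scarcer and far more variable. Its single locus lies at positions 65248866 to 65248887 of chromosome 18 (GRCm38, plus strand), in an exon of the long non-coding RNA gene AC157910.3. It averaged 72.2 ± 101 CPM (SD, n = 24), with 14 to 2007 reads a library, and ran from 4.43 CPM in trained kinase dead replicate 1 to 444 CPM in trained wild type replicate 2, a ratio of 100.2. In sedentary wild type it ran from 7.32 to 226 CPM with a median of 55.2, and in trained wild type from 7.06 to 444 CPM with a median of 69.9. Sedentary kinase dead libraries held 5.58 to 89.1 CPM with a median of 32.9, and trained kinase dead libraries 4.43 to 82.7 CPM with a median of 20.96. The group means were 138 ± 173 CPM in trained wild type, 75.7 ± 80.5 in sedentary wild type, 42.6 ± 37.3 in sedentary kinase dead and 32.1 ± 30.7 in trained kinase dead, and neighbours differed by less than the larger SD. Every group had libraries under 10 CPM and libraries above 80, and all groups overlapped.

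**Figure D1:**
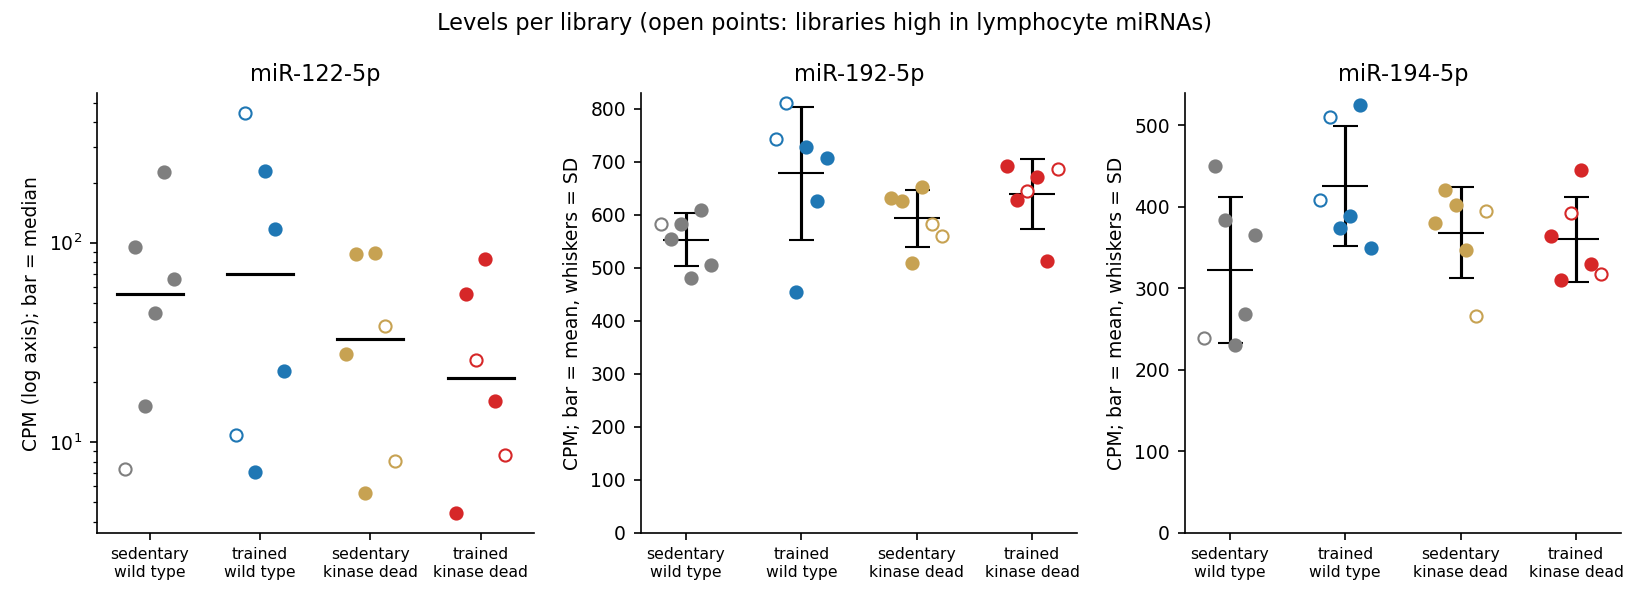
Level of each miRNA in each library by group (n = 6 per group), in CPM, with a log axis and medians for miR-122-5p and means with SD for the others. Open points are the 7 libraries high in lymphocyte miRNAs, and miR-122-5p spreads from 4.43 to 444 CPM while miR-192-5p stays between 453 and 811 CPM.

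The design asks how training changes miRNAs in this fat, first in wild type mice. miR-192-5p stood 1.23-fold higher in trained than in sedentary wild type (95% interval 1.03 to 1.47) and miR-194-5p 1.32-fold higher (1.04 to 1.68). Neither passed edgeR's quasi-likelihood test after Benjamini-Hochberg adjustment over all 582 features (adjusted p = 0.779 for both). The background share called in this comparison was 0%. Before adjustment 2 of the 3 miRNAs and 5.33% of all features lay under 0.05. The unadjusted edgeR values were 0.0265 for miR-192-5p and 0.0263 for miR-194-5p, the 18th and 17th smallest. By DESeq2 they were 0.0247 and 0.0252, and 38 features lay under 0.05, against 31 by edgeR. Without the 7 lymphocyte-high libraries the log2 fold changes were 0.25 and 0.31, against 0.30 and 0.40 with them.

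For miR-122-5p the wild type training estimate stood at 0.86 on the log2 scale (SE 0.93, edgeR adjusted p = 0.960). It rested on single libraries, since it was 0.02 without trained replicate 2 and 1.56 without sedentary replicate 5. Without the 7 lymphocyte-high libraries, which include trained replicate 2, the estimate was 0.11. Its 95% interval, -1.05 to 2.78, spans both signs.

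In kinase dead mice the intervals of all 3 miRNAs spanned 0. On the log2 scale miR-192-5p was at 0.11 (95% interval -0.15 to 0.36), miR-194-5p at -0.03 (-0.38 to 0.31) and miR-122-5p at -0.41 (-2.34 to 1.52), and edgeR's Benjamini-Hochberg adjusted p was 0.994 for each. None of the 3 had an unadjusted p under 0.05, against a background of 2.41% of features (14 by edgeR, 15 by DESeq2). The miR-192-5p value was -0.01 without sedentary replicate 3 and -0.00256 without trained replicate 6, and the miR-194-5p value was 0.04 without trained replicate 2. Without the 7 lymphocyte-high libraries they were 0.02 and -0.12. The miR-122-5p value ran from -1.03 without trained replicate 4 to -0.08 without sedentary replicate 4.

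Averaged over both genotypes, miR-192-5p stood at a log2 fold change of 0.20 with training (SE 0.09, 95% interval 0.02 to 0.38, adjusted p = 0.743), miR-194-5p at 0.18 (SE 0.12, adjusted p = 0.940) and miR-122-5p at 0.23 (SE 0.66, adjusted p = 1.000). miR-192-5p was the 1 of the 3 under an unadjusted p of 0.05, where 6.19% of features lay (36 by edgeR, 38 by DESeq2). Its value was 0.13 without trained wild type replicate 2 and also without the lymphocyte-high libraries, which include that replicate. That of miR-194-5p was 0.10 without trained wild type replicate 5 and 0.09 without the lymphocyte-high libraries, and that of miR-122-5p ran from -0.23 without trained wild type replicate 2 to 0.54 without sedentary wild type replicate 5.

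Whether training acted differently in the 2 genotypes was tested as an interaction, kinase dead minus wild type. The difference of training effects was -0.43 for miR-194-5p on the log2 scale (SE 0.24, 95% interval -0.92 to 0.06), -0.19 for miR-192-5p (SE 0.18) and -1.27 for miR-122-5p (SE 1.32), each with an adjusted p of 0.993 by edgeR. The miR-122-5p value was -0.50 without trained wild type replicate 2 and -2.04 without sedentary wild type replicate 5. Without the lymphocyte-high libraries, which include trained wild type replicate 2, it was -0.54. The miR-192-5p value ran from -0.32 without trained wild type replicate 3 to -0.11 without sedentary wild type replicate 6. The unadjusted p of miR-194-5p, 0.0823, was the 21st smallest. None of the 3 lay under 0.05, against 2.23% of all features (13 by edgeR, 10 by DESeq2).

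Between genotypes, sedentary kinase dead mice stood at 0.10 for miR-192-5p (SE 0.12), 0.19 for miR-194-5p (SE 0.17) and -0.83 for miR-122-5p (SE 0.93) relative to sedentary wild type, with an edgeR adjusted p of 0.991 for each. None of the 3 and 1.2% of features (7 by edgeR, 6 by DESeq2) had an unadjusted p under 0.05. The miR-122-5p value was -0.04 without sedentary wild type replicate 5. The miR-194-5p value ran from 0.12 without sedentary wild type replicate 4 to 0.38 without sedentary wild type replicate 2, and the miR-192-5p value reached 0.21 without sedentary kinase dead replicate 3.

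Between trained groups miR-122-5p had the smallest p of all 582 features, without passing. It stood at a log2 fold change of -2.11 in kinase dead relative to wild type (SE 0.96, 95% interval -4.09 to -0.12, unadjusted p = 0.0384, edgeR adjusted p = 0.996). Of the 6 trained kinase dead libraries 5 lay below the trained wild type median. Leaving out trained wild type replicate 2, the library with 444 CPM, moved the value to -1.23. Leaving out the 7 lymphocyte-high libraries, which include that library, moved it to -1.32. miR-192-5p was at -0.08 (SE 0.12) and miR-194-5p at -0.24 (SE 0.17). Leaving out 1 library moved the first to between -0.15 (trained wild type replicate 3) and -0.01 (trained kinase dead replicate 5), and the second to -0.15 at the nearest to 0 (trained wild type replicate 5). With 1 of the 3 miRNAs under an unadjusted p of 0.05, the background was 0.687% of features (4 by edgeR, 9 by DESeq2). As in the other 5 comparisons, 0% of features passed after adjustment. In this comparison all 6 tested miRNAs of a striated muscle list, described below, also lay lower in kinase dead. Their median log2 fold change was -1.32, against 0.01 over all tested features, and 2 of them had an unadjusted edgeR p under 0.05. Their part in the miR-122-5p value was not tested.

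**Figure D2:**
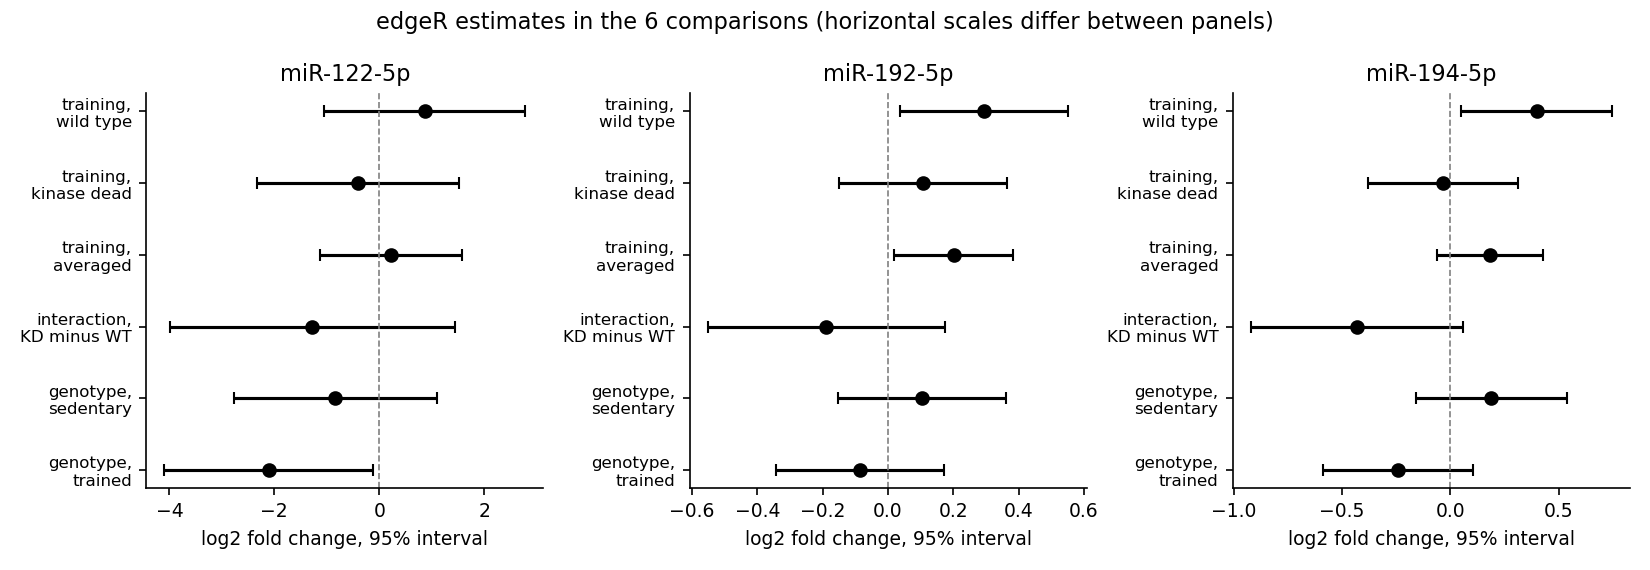
Log2 fold changes with 95% intervals of the 3 miRNAs in the 6 comparisons, from edgeR. KD is kinase dead and WT wild type, and the interval of miR-122-5p for the trained genotypes (-4.09 to -0.12) is several times wider than any interval of miR-192-5p or miR-194-5p.

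The 3 miRNAs differed in how much they varied beyond sampling noise. edgeR's biological coefficient of variation (BCV, the spread between libraries of a group that remains after counting noise) was 1.03 for miR-122-5p, higher than for 98.3% of tested features. Among the 358 features with a mean of at least 10 CPM it ranked 6th, behind miR-3969, miR-3964 and the leukocyte miRNA miR-142a (both arms, with miR-142b on the opposite strand), which are named here for their rank after the values were seen. For miR-192-5p the BCV was 0.186, with 6.53% of tested features lower, and for miR-194-5p 0.228, with 25.9% lower. The median over tested features was 0.273. The deepest library held miR-122-5p at 16.0 CPM from 415 reads and the shallowest at 44.5 CPM from 76 reads.

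**Figure D3:**
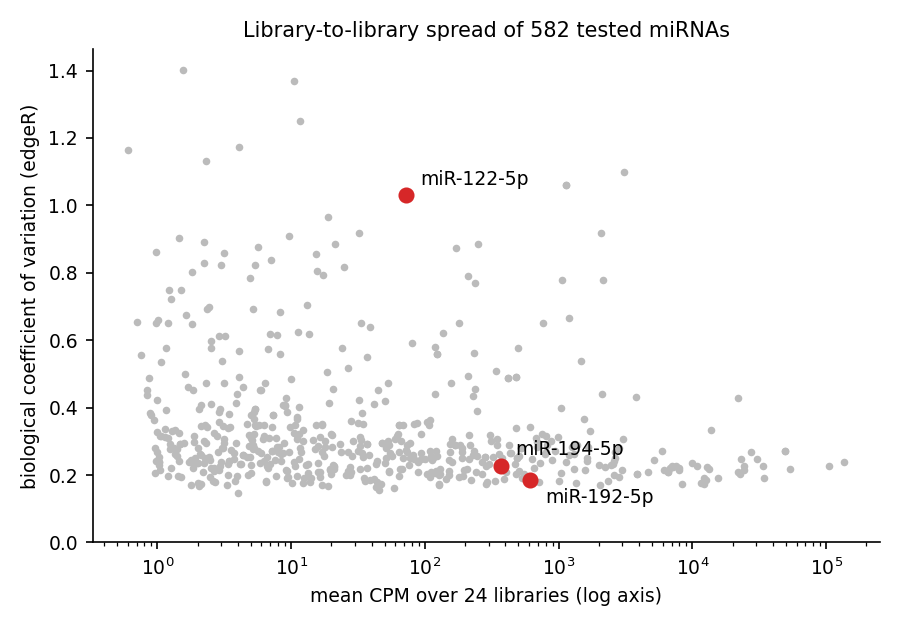
Biological coefficient of variation against mean CPM (log axis) for the 582 tested features, with the 3 miRNAs in red. miR-122-5p stands at 1.03, and miR-192-5p (0.186) and miR-194-5p (0.228) lie below the median of 0.273.

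Covariation of the 3 over the 24 libraries was weak. For miR-192-5p with miR-194-5p Pearson's r of log2 CPM was 0.34 (permutation p = 0.103) and Spearman's rho 0.229 (permutation p = 0.281). miR-122-5p gave r = 0.327 with miR-192-5p (permutation p = 0.117, rho 0.233 with permutation p = 0.272) and r = 0.237 with miR-194-5p (permutation p = 0.265, rho 0.255 with permutation p = 0.230). Over the 33 relations computed in this family the Benjamini-Hochberg adjusted p of these 3 was 0.524 for r and 0.621 for rho. Without the 2 libraries farthest from the median of the first measure r was 0.257, 0.285 and 0.123, in that order. Without the 7 lymphocyte-high libraries r was 0.253 for miR-192-5p with miR-194-5p, 0.351 for miR-122-5p with miR-192-5p and 0.0231 for miR-122-5p with miR-194-5p. Within those 7 libraries, as a description, it was 0.684, 0.595 and 0.547.

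Within single groups the relations had no common sign. miR-122-5p with miR-192-5p ran from r = -0.127 in trained kinase dead to 0.890 in sedentary kinase dead, and miR-122-5p with miR-194-5p from -0.256 in sedentary kinase dead to 0.635 in trained wild type. miR-192-5p with miR-194-5p ran from -0.106 in sedentary kinase dead to 0.316 in trained kinase dead. These are over 6 libraries each and are given as a description. The ratio of miR-192-5p to miR-194-5p lay between 1.19 and 2.45 with a mean of 1.72 ± 0.364 (SD, n = 24), and its group means ran from 1.62 in trained wild type to 1.82 in sedentary wild type.

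**Figure D4:**
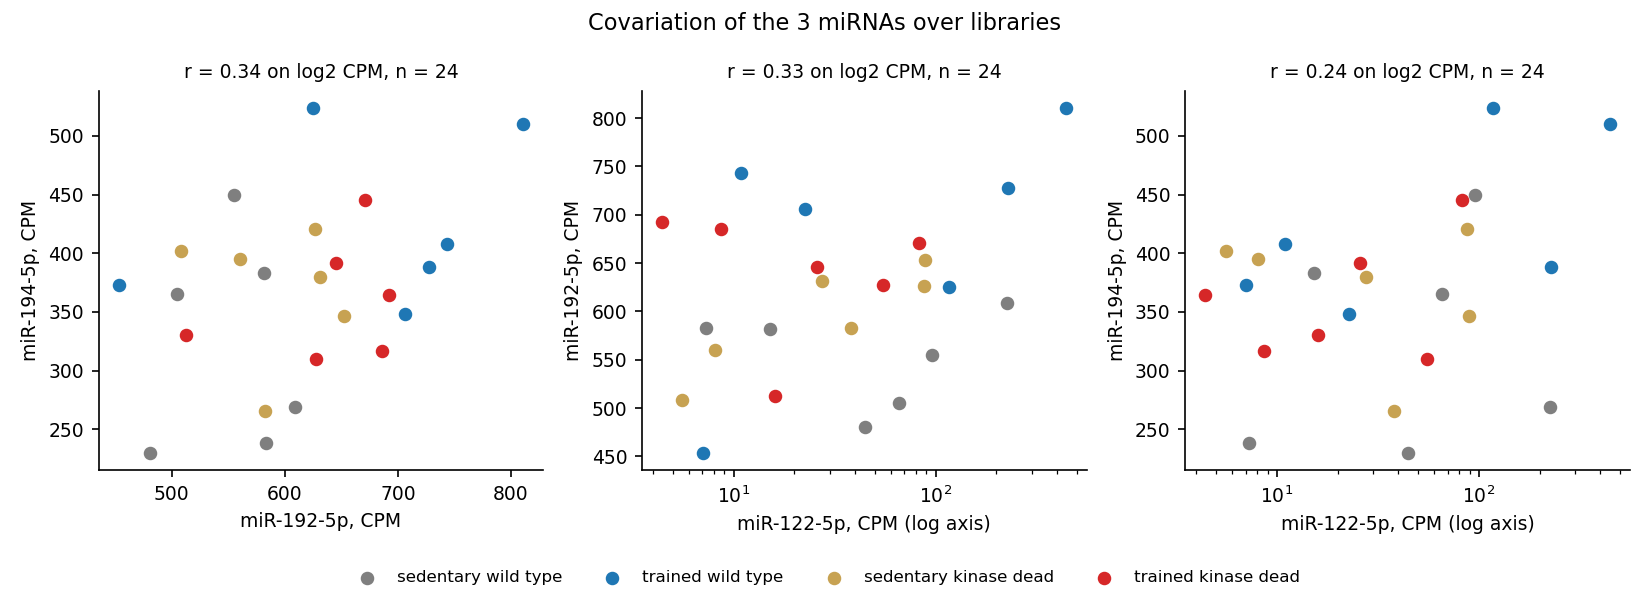
Each point is 1 library, coloured by group, with CPM of 1 miRNA on each axis (miR-122-5p on a log axis). Pearson's r on log2 CPM is 0.34, 0.33 and 0.24 from left to right, and no pair follows a line.

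Reads of miR-194-5p were counted at both hairpins in near-constant proportion. The copy at Mir194-2 received 56.5% ± 1.58 of them (SD, n = 24), between 53.7% and 59.5%. The 3p arms, which differ in sequence, were split otherwise. miR-194-2-3p had 451 reads over all libraries, at least 3 in each, and miR-194-1-3p had 16, in 9 libraries, so that miR-194-1-3p made up 3.43% of the sum (Wilson 95% interval 2.12 to 5.49%, counting error only). The hairpin partners were likewise unequal: miR-192-5p, beside Mir194-2, had 126470 reads and miR-215-5p, beside Mir194-1, had 3781. A share of 3p reads does not measure how much of the 5p arm each hairpin made, since arm use can differ between hairpins.

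Reads of the 5p arm outnumbered those of the 3p arm. miR-122-5p had 12263 reads against 13 of miR-122-3p, and miR-192-5p 126470 against 62 of miR-192-3p. miR-194-5p had 79465 reads over its copies. miR-122-3p, miR-192-3p, miR-194-1-3p and miR-215-3p did not pass the filter on low counts.

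The 3p arm of Mir194-2 ranked the libraries more like its neighbour miR-192-5p than like its own 5p arm, a contrast that was not tested. Over 24 libraries miR-194-2-3p had a rho of 0.630 with miR-192-5p, and of 0.566 in the 17 libraries that were not lymphocyte-high. With miR-194-5p its rho was -0.0217, and -0.0564 in the 17. In the 7 lymphocyte-high libraries both were positive, at 0.75 with miR-192-5p and 0.393 with miR-194-5p. These values are a description, looked up after the levels were known, and miR-194-2-3p is scarce at 1.24 to 3.77 CPM, or 3 to 42 reads a library.

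miR-215-5p, the miRNA with the seed of miR-192-5p, averaged 18.5 ± 10.4 CPM (SD, n = 24), from 6.38 to 39.7 CPM, and separated the libraries along the lymphocyte split. In the 7 lymphocyte-high libraries it lay between 24.2 and 39.7 CPM with a median of 36.1, and in the other 17 between 6.38 and 23.1 CPM with a median of 13.2, without overlap. How many of all tested features separate likewise was not counted, so the split is given as a description. The 3 miRNAs themselves did overlap. miR-192-5p stood between 560 and 811 CPM in these 7 libraries and between 453 and 728 in the rest. miR-194-5p stood between 238 and 510 CPM in these and between 230 and 524 in the rest, and miR-122-5p between 7.32 and 444 against 4.43 to 229 CPM. Medians in the 7 and in the other 17 libraries were 646 and 625 CPM for miR-192-5p and 392 and 373 CPM for miR-194-5p. For miR-122-5p they were 10.9 and 55.1 CPM, and the 444 CPM is that of trained wild type replicate 2. Inside each set miR-215-5p followed miR-192-5p, with rho = 0.669 over the 17 and 0.821 over the 7, again as a description. Whether reads of these near-identical sequences were exchanged in mapping was not tested.

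**Figure D5:**
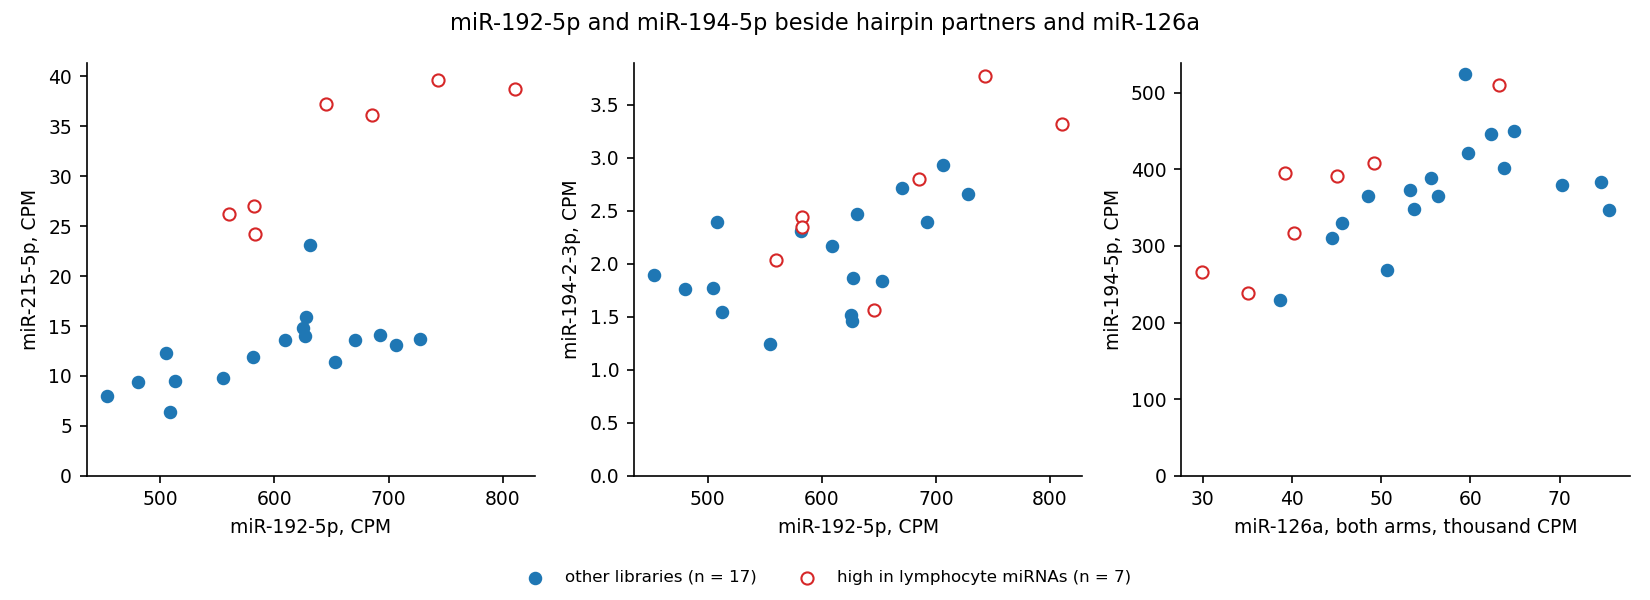
CPM of miR-215-5p and of miR-194-2-3p against miR-192-5p, and of miR-194-5p against summed miR-126a, 1 point per library. The 7 open points lie above the rest for miR-215-5p, at 24.2 CPM or more against at most 23.1 CPM, and overlap the rest in the other panels. Their median of summed miR-126a is 40180 CPM, against 56405 CPM in the other libraries. The share of all tested features that separate as miR-215-5p does was not counted.

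The wider list of intestinal and kidney miRNAs holds both arms of miR-192, miR-215 and the miR-194 hairpins. Of its 7 features 4 were tested and 0 passed in any of the 6 comparisons. With training in wild type all 4 lay above 0 with a median log2 fold change of 0.43, against 0.01 over all tested features. miR-215-5p was at 0.64 (SE 0.43) and miR-194-2-3p at 0.46 (SE 0.25). These values moved with the lymphocyte-high libraries, of which trained wild type holds 2 and sedentary wild type 1. Without them miR-215-5p was at 0.16 (SE 0.28), miR-194-2-3p at 0.37 (SE 0.29) and the median of the 4 at 0.28, against 0.04 over the features then fitted. With training in kinase dead 3 of the 4 lay above 0 and 1 below, with a median of 0.07, and without the lymphocyte-high libraries 2 lay on each side with a median of -0.05. Since 2 of these 4 are the miRNAs described above and all come from 2 clusters, the count is a description.

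The other liver miRNAs ranged from nearly undetected to very abundant. miR-802, which is made in liver and pancreas, was almost absent, with 15 reads of miR-802-5p in 11 libraries and 5 of miR-802-3p, while miR-122-5p had 12263. miR-148a-3p, abundant in liver and in adipocytes alike, stood at 33546 CPM, and miR-101a-3p, which many tissues make, at 23061 CPM. Of the 11 features of this list 8 were tested and 0 passed in any comparison. With training in wild type 4 lay above 0 and 4 below, with a median of 0.07. Fewer cells of a type and less RNA per cell cannot be told apart in such bulk samples, and the cells that the miR-122-5p reads came from were not tested.

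The miRNAs whose rank order over the 24 libraries was most like that of each of the 3 were found among 578 tested features, where the median rho was near 0 (0.01 to 0.03). For miR-122-5p they were the muscle miRNA miR-206-3p (rho 0.563), miR-345-3p (0.561), miR-129-5p (0.549) and miR-1a-3p (0.510) with miR-1b-5p, which overlaps it on the opposite strand (0.514). miR-192-5p ranked below 91 and miR-194-5p below 68 of the features in likeness to miR-122-5p. For miR-192-5p they were miR-10a-5p (0.638), miR-215-5p (0.618), miR-30e-3p with the opposite-strand miR-30f (0.583 each) and miR-378a-3p (0.577). For miR-194-5p they were miR-3068-5p (0.757), the scarce miR-7116-3p (0.645), miR-872-5p (0.627) and the endothelial miR-126a-3p with the opposite-strand miR-126b-5p (0.588 each). Each was picked as the highest of 578 values, so these are descriptions.

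Relations with marker lists of other cells and with depth made up 30 of the 33 relations, and 1 passed. miR-194-5p followed the summed level of miR-126a, with r = 0.656 (permutation p = 0.00071, adjusted p = 0.0234) and rho = 0.583 (permutation p = 0.00356, adjusted p = 0.117), so that it passed on r and not on rho. Without the 2 libraries farthest from the median of miR-126a r was 0.517 (permutation p = 0.0129), and in the 17 libraries that were not lymphocyte-high it was 0.632 (permutation p = 0.00631). miR-126a summed to 35101 to 74660 CPM in sedentary wild type, 49147 to 63265 in trained wild type, 29873 to 75577 in sedentary kinase dead and 40180 to 62325 in trained kinase dead. Its part in the values of miR-194-5p was not tested.

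miR-122-5p moved with striated muscle miRNAs without passing, with rho = 0.517 (permutation p = 0.011, adjusted p = 0.181) and r = 0.398 (permutation p = 0.0551). Without the 2 libraries farthest from the median of the muscle list r was 0.329 (permutation p = 0.136). In the 17 libraries that were not lymphocyte-high r was 0.354 (permutation p = 0.160) and rho 0.458 (permutation p = 0.0667). That list, led by miR-1a-3p, summed to 664 to 7654 CPM in sedentary wild type, 1145 to 6093 in trained wild type, 457 to 8506 in sedentary kinase dead and 731 to 2366 in trained kinase dead. Of its defining markers miR-1a-3p and miR-133a-3p were read in every library, while miR-208b-3p had 9 reads in all. Its part in the values of miR-122-5p was not tested. miR-194-5p had r = 0.454 with the library total (permutation p = 0.0248, adjusted p = 0.409) and 0.277 without the 2 farthest libraries. By rank the relation was weaker, with rho = 0.363 (permutation p = 0.0819, adjusted p = 0.621). In the 17 libraries that were not lymphocyte-high r was 0.477 (permutation p = 0.0518) and rho 0.248 (permutation p = 0.334). Trained libraries were the deeper ones by median, and the part of depth in the training values of miR-194-5p was not tested. For the lymphocyte list and the pancreas list, which split the libraries without overlap, no pooled value is given. In the 17 other libraries r of the lymphocyte list was 0.216 with miR-122-5p (permutation p = 0.403), -0.366 with miR-192-5p (permutation p = 0.148) and -0.158 with miR-194-5p (permutation p = 0.547). For the pancreas list it was 0.0853, 0.119 and -0.222, in the same order (permutation p = 0.745, 0.645 and 0.397). The sum of the pancreas list is mostly miR-7a-5p, at a mean of 1042 CPM against 23.1 CPM for miR-375-3p. Leaving out these lists and miR-194-5p with miR-126a, the 23 remaining relations had r between -0.202 and 0.454 and a smallest adjusted p of 0.409. Besides muscle and library total they cover red cells, myeloid cells, epithelium, nerve, adipocytes with stroma, and endothelium.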

How the data were processed

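Small RNA was extracted with TRIzol and made into libraries with an NEBNext small RNA kit, per the labels' protocols. The submitters' processing notes name build mm10 and the tools CASAVA 1.8.2, Bowtie2, featureCounts and Trim Galore. Other versions and the settings are not given. For each mature miRNA locus the authors' table holds raw, unnormalized read counts. Multi-mapped and opposite-strand reads are therefore counted in an unstated way, and ligation bias makes levels of different miRNAs only roughly comparable. Some overlapping opposite-strand loci held nearly the same totals, such as 10045535 reads of miR-126a-3p and 10045633 of miR-126b-5p. For miR-142a-3p and miR-142b they were 232444 and 232219. The entries of such a pair are not separate measurements.

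The 2045 loci were named by coordinates, 1670 from RefSeq (GRCm38.p6) and 375 from GENCODE M21 hairpins, and summed over copies to 1907 mature miRNAs. edgeR 4.0.16 (R 4.3.3) was run on these counts with TMM factors, filterByExpr (582 features kept) and 1 quasi-likelihood fit of 4 groups with 6 contrasts. Benjamini-Hochberg adjustment ran over 582 features with a threshold of 0.05. Alternatives were DESeq2 1.42.0, other size factors, no filter, separate copies, 2-group fits, robust spread, and leaving out the lymphocyte-high or single libraries. The fit was tested on simulated data. Correlations used log2 CPM and 100000 permutations, two-sided (scipy 1.17.1 for ranks). Marker lists were summed in CPM. Where overlapping opposite-strand loci had totals within 1% of each other, 1 miRNA of the pair was left out, so that miR-126a was summed without miR-126b. The genes named are the 3 miRNAs, their arms and hairpins, the liver, intestine and pancreas lists, the 5 most alike features of each, and features of a marker list a member moved with. The members and lists were chosen with earlier results of these data known. No 2 libraries looked like 1 deposited again (smallest chi-square per degree of freedom 38.1 over 276 pairs). Replicates are numbered in accession order.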

Additional observations from a re-analysis of the deposited data

Results flagged for a closer look

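Of 16 sets of 6 values examined (the 3 miRNAs and the ratio of miR-192-5p to miR-194-5p in each group), 1 had a library far from the others: miR-192-5p at 513 CPM in trained kinase dead replicate 5. The others of that group stood between 628 and 692 CPM, and its gap to the nearest one was 0.639 of the group's range. It is the library with the most reads (23.6 M). About 1 in 20 such sets is flagged by chance.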

How the results depend on the processing

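No feature was called in any of 142 recounts under other settings. Of 426 refitted values of the 3 miRNAs none had an adjusted p under 0.05, and 420 kept their direction. The exceptions were small values. miR-122-5p averaged over genotypes was -0.16 without the lymphocyte-high libraries and -0.23 without trained wild type replicate 2, which is among them. It was -0.09 without trained kinase dead replicate 4, in a range of -0.23 to 0.54 as each library was left out. miR-192-5p for training in kinase dead ran from -0.0116 to 0.14, with -0.00256 without trained replicate 6, and miR-194-5p from -0.17 to 0.0401. Among marker relations r changed sign without the 2 farthest libraries for miR-194-5p with red cells (0.0551) and with adipocytes and stroma (-0.0272), and for miR-192-5p with adipocytes and stroma (-0.0044) and library total (-0.115). Without the lymphocyte-high libraries it changed sign for miR-122-5p with lymphocytes (0.216), epithelium (-0.00923), endothelium (-0.0406) and pancreas (0.0853), for miR-192-5p with lymphocytes (-0.366) and muscle (0.0111), and for miR-194-5p with nerve (-0.128) and with adipocytes and stroma (-0.191). The median of the intestine and kidney list for training in kinase dead was -0.0531 without those libraries, a check added after seeing the data. The cause was not tested. No paired analysis was possible because the labels give no replicate numbers. Depth limits miR-122-5p most, with 14 reads in its lowest library, against 820 for miR-192-5p and 392 for miR-194-5p.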

Other observations

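miRNAs of pancreas and gut endocrine cells were measured as well, and no feature of that list passed in any comparison (5 of 13 tested). miR-375-3p, which is abundant in pancreatic islets, averaged 23.1 CPM, between 13.7 and 34.2 CPM over the 24 libraries. The acinar miRNAs miR-216a-5p (127 reads over all libraries), miR-216b-5p (37) and miR-217-5p (193) averaged under 1 CPM. miR-7a-5p, known from endocrine and nerve cells, averaged 1042 CPM, between 619 and 2162 CPM. It separated along the lymphocyte split, with 1163 CPM or more in the 7 lymphocyte-high libraries and at most 1091 CPM in the other 17. So did miR-7a-1-3p, with 13.98 CPM or more against at most 13.25 CPM, while miR-375-3p, miR-217-5p and miR-7b-5p overlapped. The share of all tested features that separate in this way was not counted. With training in wild type the list's median log2 fold change was -0.08, against 0.01 over all features tested, and -0.21 without the lymphocyte-high libraries.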
